A study of Mus musculus with 4 samples.

Results

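T, natural killer (NK) and innate lymphoid cells made up 70 of the 17312 barcodes that passed the filters in 4 single-cell RNA libraries of mouse heart, a share of 0.404% (exact 95% interval 0.315 to 0.511). A barcode was taken as lymphoid when at least 3 of 12 genes had 1 or more UMI. These were the T cell receptor genes Cd3d, Cd3e, Cd3g, Trac, Trbc1 and Trbc2, the NK genes Ncr1, Klrb1c, Klre1 and Gzma, and Il7r and Gata3. At most 1 of Cd79a, Cd79b, Ms4a1 and Cd209a, genes of B cells and dendritic cells, was allowed. The levels of these genes describe the choice and are no result.

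The cells came from adult mice that received carboplatin (CBP), a platinum drug that crosslinks DNA, at 45 mg/kg into the peritoneum, or PBS, with 2 injections a week for 2 weeks. All mice then had 4 weeks of recovery, and a minipump under the skin delivered AngII at 1.5 mg/kg per day with PE at 50 mg/kg per day, or saline (the Sham groups), for 7 days. The groups were carboplatin with AngII/PE, PBS with AngII/PE, carboplatin with saline and PBS with saline, and each gave 1 library from the pooled hearts of 5 mice of mixed sex. The sort was for CD64+ phagocytes (CD45+, CD11b+, Ly6G negative, Ly6C low), and the submitters list lymphocytes among the contaminating cells they removed, per the series' design text. The cells described here are therefore the lymphoid cells that came through a gate for phagocytes, and each share is one of sorted barcodes and not of the heart.

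T cells recognise peptides on MHC molecules through a clonal receptor that signals through the CD3 chains, and divide into CD8 cells, which kill target cells, and CD4 cells, which direct other immune cells. NK cells lack that receptor and weigh activating against inhibitory surface receptors, among them the large Klra (Ly49) family of the mouse, before they release perforin and granzymes. Innate lymphoid cells of the ILC2 kind carry Il7r and Gata3 without a T cell receptor and are a source of type 2 cytokines in many tissues. Ccl5 is a chemokine of cytotoxic lymphocytes and some macrophages that attracts leukocytes.

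Each group is 1 library, so the spread between replicates is unknown. Differences are therefore given without tests or p-values, and intervals cover counting error only. The libraries held 5997 to 8012 barcodes and 62943457 to 95752612 UMIs. The filters kept 5669 barcodes of carboplatin with AngII/PE, 3849 of PBS with AngII/PE, 3484 of carboplatin with saline and 4310 of PBS with saline, which is 49.4% of the barcodes in carboplatin with saline and 62.4 to 70.8% in the others. Any 2 libraries shared 1 to 10 kept barcode sequences, and no lymphoid barcode was among them. Of 90 barcodes that met the gene rule before the filters, 70 were kept. The median mitochondrial share of the lymphoid barcodes was 3.17% in carboplatin with AngII/PE, 3.77% in PBS with AngII/PE, 1.83% in carboplatin with saline and 3.08% in PBS with saline, against 2.78 to 3.49% over all kept barcodes of a library.

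Some barcodes lay near the edge of the rule. Just outside it, 45 kept barcodes had 2 of the genes, with a median of 3 UMIs of them at a median depth of 19844 UMIs. They numbered 10 in carboplatin with AngII/PE, 12 in PBS with AngII/PE, 15 in carboplatin with saline and 8 in PBS with saline. In PBS with AngII/PE, 1 of them had 184 Ccl5 UMIs, against 115 in the 10 lymphoid barcodes together, and is not counted as lymphoid. Just inside it, 6 barcodes had 3 of the genes with a median of 5.5 such UMIs, and 6 had 4 of the genes with a median of 151. All 70 together had a median depth of 10259.5 UMIs (1988 to 27148) and a median of 3449.5 genes.

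The lymphoid barcodes carried little RNA of the macrophages around them. The 10 macrophage markers took a median of 0.0369% of the UMIs of a lymphoid barcode, against library medians of 1.56 to 2.12% in barcodes with macrophage markers. A lymphoid barcode exceeded 25% of its library's median in 2 cases, 1 T barcode of PBS with AngII/PE (1.03%) and 1 T barcode of PBS with saline (0.973%). The markers summed to 781 UMIs per 1000000 (CPM) over the lymphoid barcodes of carboplatin with AngII/PE, 2443 in PBS with AngII/PE, 388 in carboplatin with saline and 2155 in PBS with saline. The 2 macrophage-rich barcodes held 279 of 345 and 225 of 294 of the marker UMIs of the PBS libraries, and without them the sums were 579 CPM in PBS with AngII/PE and 609 in PBS with saline. The median barcode had 0.0505, 0.0336, 0.0300 and 0.0447% in the order of libraries above, so the PBS libraries did not stand apart by it. All 10 were detected in each library except Fcgr1 in carboplatin with AngII/PE. Of 8 B cell markers, Cd79a and Ms4a1 were at 0 in all lymphoid barcodes, and the list summed to 43.9 to 308 CPM. The 8 endothelial markers summed to 87.7 CPM in carboplatin with AngII/PE, 205 in PBS with AngII/PE, 420 in carboplatin with saline and 132 in PBS with saline, and 2 barcodes of carboplatin with saline had at least 4 of them. No doublet caller was run.

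By their receptor genes, 33 of the 70 were T barcodes, with at least 2 of the 6 T cell receptor genes, 1 of them a Cd3 gene, and at most 1 of Ncr1, Klrb1c and Klre1. A further 29 were NK barcodes, with at least 2 of the 4 NK genes and no Cd3 gene. Both sets were present in 5 barcodes, and 3 met no definition. T barcodes had a median depth of 10785 UMIs and NK barcodes one of 9558.

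**Figure D1:**
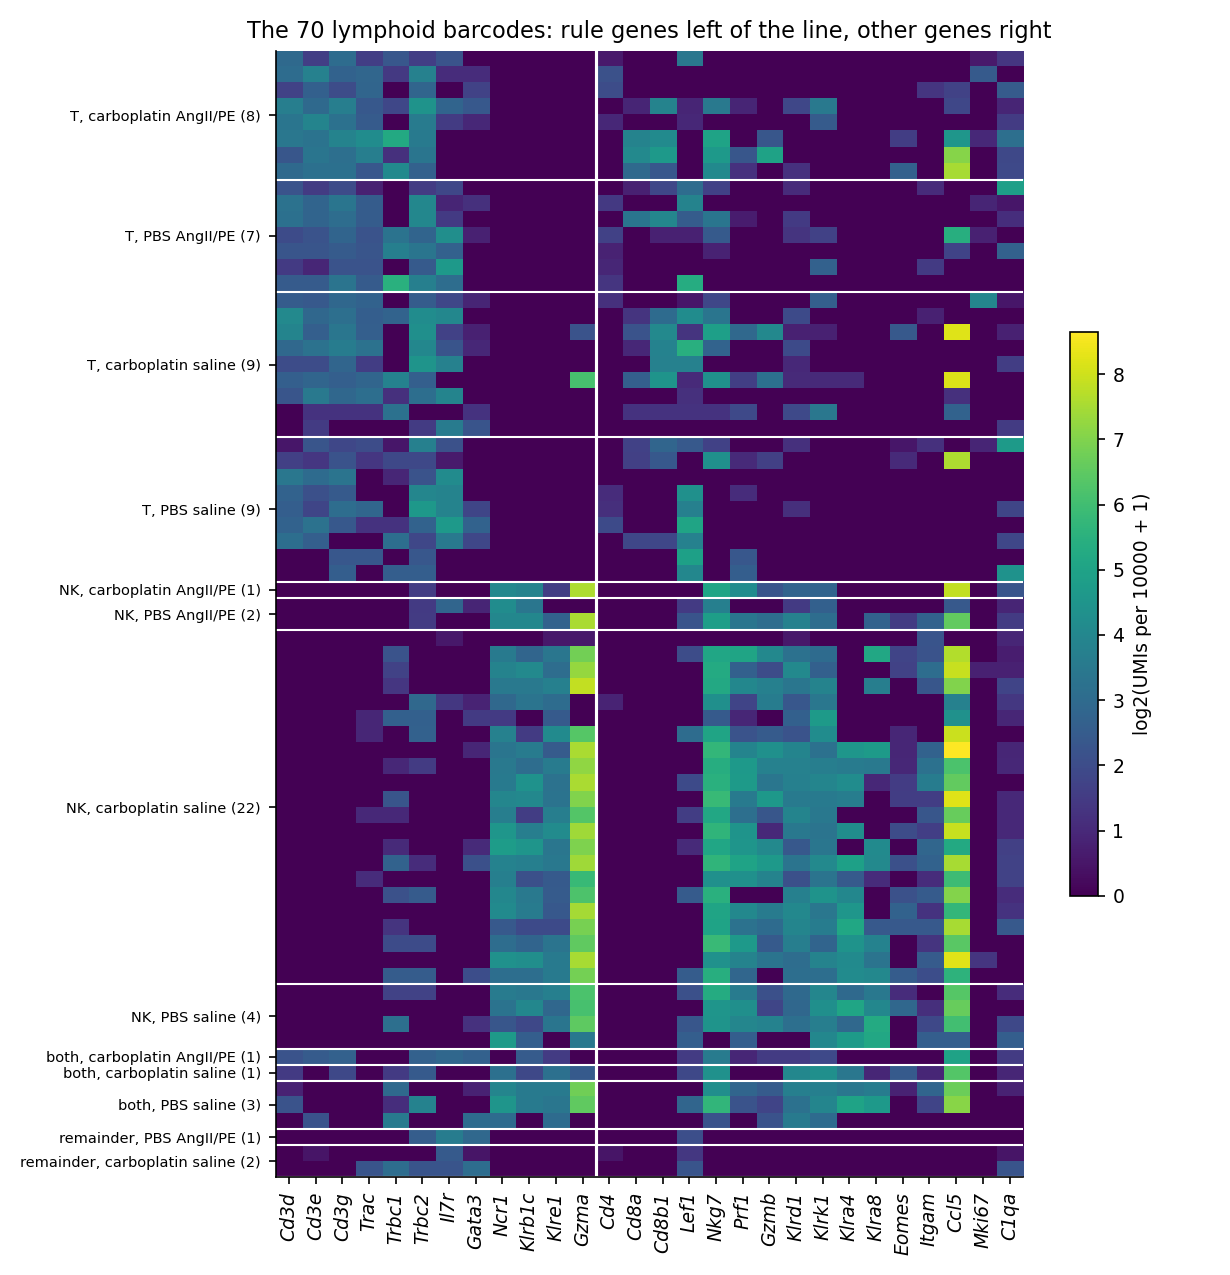
Heat map of the 70 lymphoid barcodes, grouped by class and library, against the 12 rule genes and further genes named in the text, coloured by log2(UMIs per 10000 + 1). Among genes outside the rule, Nkg7, Prf1, Klrd1, Klrk1 and Ccl5 fill the 29 NK barcodes, and Ccl5 appears in 12 of the 33 T barcodes.

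NK barcodes carried the receptors and the granule content of NK cells. Ncr1, the activating receptor NKp46, was found in 28 of 29 with a median of 11 UMIs per barcode, and Gzma, a granzyme, in 26 with a median of 89 and a highest value of 288. These values belong to the rule. Outside it, perforin (Prf1), which forms the pore that lets granzymes into a target cell, was found in 26 of 29 with a median of 10 UMIs and a highest value of 54. Nkg7, a protein of cytotoxic granules, was found in 27 with a median of 32, and Gzmb, a granzyme that cleaves caspases, in 23 with a median of 5. The receptor genes Klrd1 (CD94) and Klrk1 (NKG2D) were each found in 28 of 29.

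T barcodes had less of these genes and other barcodes almost none. Prf1 stood at 1281 CPM (1152 to 1421) over NK barcodes and 60.4 (38.7 to 89.8) over T barcodes, against 0.179 (0.126 to 0.246) over all kept barcodes that were not lymphoid. When each barcode was thinned to 1000 UMIs, Prf1 was found in 20 of 29 NK barcodes (69.0%) and 4 of 33 T barcodes (12.1%), against 1 of 1687 barcodes with endothelial markers (0.0593%), cells that should lack it. The unthinned shares were 89.7% of NK, 33.3% of T and 0.117% of endothelial-marker barcodes, at median depths of 9558, 10785 and 7904 UMIs. The order of the classes was the same for Klrd1, with thinned shares of 41.4% of NK, 9.09% of T and 0.237% of endothelial-marker barcodes and unthinned shares of 96.6, 39.4 and 0.762%.

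The Klra receptors were spread unevenly over the NK barcodes. The matrices list 11 Klra genes, of which 10 were detected in NK barcodes. At least 1 was found in 28 of 29 NK barcodes, with a median of 4 Klra genes per barcode and a highest number of 8, against 3 of 33 T barcodes. Klra4 was found in 17 NK barcodes with up to 26 UMIs, Klra8 in 17 with up to 59, and Klra9 in 18. The Klra genes, the Klrc genes and some granzymes are near copies of each other, so reads could be assigned to the wrong copy and single members are uncertain.

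By fold over all kept barcodes that were not lymphoid, the 20 leading genes of the NK barcodes were Klra8, Gzmb, Xcl1, Klrg1, Gzma, Ifng, Klra7, Nkg7, Klra4, Ncr1, Cma1, Klrc2, Fasl, Samd3, Prf1, Klrc1, Eomes, Ctsw, Il2rb and Igsf5. The list describes how the NK barcodes were chosen and is no test. It holds Eomes, a transcription factor of NK cells, found in 16 of 29, and Il2rb, a chain of the receptor for interleukin 2 and 15, found in 26. Ifng, the main NK cytokine, had 44 UMIs in 17 barcodes, whereas the 127 UMIs of Xcl1, a chemokine for dendritic cells with Xcr1, came from 3. Cma1, known as a mast cell chymase, was found in 22 of 29 NK barcodes with up to 20 UMIs and in 0 of 33 T barcodes. Of 8 mast cell and basophil genes, 5 were detected in lymphoid barcodes with 131 UMIs, of which 122 were of Cma1, and Mcpt8, Ms4a2 and Fcer1a were at 0. The list summed to 0 CPM over the lymphoid barcodes of carboplatin with AngII/PE, 14.2 in PBS with AngII/PE, 304 in carboplatin with saline and 117 in PBS with saline, against 10.3 to 20.3 over the barcodes of a library that were not lymphoid.

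Most genes of the NK lists were found in a part of the NK barcodes. At least 10% of them had a UMI of each of 15 of 15 NK receptor genes, 17 of 17 genes of NK identity and maturation, and 9 of 12 cytotoxic granule genes, against 6, 12 and 9 for T barcodes. The granule list includes Gzma, a rule gene. Lists not particular to NK cells were as full, with 20 of 20 dissociation and immediate-early and 14 of 14 MHC class I genes in both classes. Of 8 B cell and 8 endothelial markers, 2 and 1 reached 10% of NK barcodes. The same share over all genes is not given, and the part of depth in these counts was not tested. In mm10, the 12 Klr genes that were looked up lie on chromosome 6 between bases 128778485 and 130386874. Ncr1 lies on chromosome 7 (4337724 to 4345164, plus strand), Prf1 on chromosome 10 (61297833 to 61304680, plus strand), Gzma on chromosome 13 (113093825 to 113100981, minus strand) and Gzmb on chromosome 14 (56258838 to 56262260, minus strand). Ccl5 lies on chromosome 11 (83525778 to 83530518, minus strand).

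The promoters of Ncr1 and of the granzyme genes, which are high together in the NK barcodes, are printed from RefSeq (GRCm38.p6), from 250 bases before to 50 bases after the start of the gene, 5′ to 3′ on the gene's strand. The start is the one RefSeq gives, which differs from the annotation used for the positions above, and the Gzmb window lies wholly before the gene start given there. Capitals mark TGTGGT, the core that Runx factors bind, and its reverse complement ACCACA.
Ncr1 (chr7:4337465-4337764, plus strand): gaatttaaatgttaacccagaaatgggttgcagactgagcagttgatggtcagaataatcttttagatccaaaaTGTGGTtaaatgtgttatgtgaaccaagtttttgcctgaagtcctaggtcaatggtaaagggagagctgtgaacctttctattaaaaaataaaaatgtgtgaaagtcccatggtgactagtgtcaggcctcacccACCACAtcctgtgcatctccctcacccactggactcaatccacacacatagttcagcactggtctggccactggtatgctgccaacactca
Gzma (chr13:113100932-113101231, minus strand): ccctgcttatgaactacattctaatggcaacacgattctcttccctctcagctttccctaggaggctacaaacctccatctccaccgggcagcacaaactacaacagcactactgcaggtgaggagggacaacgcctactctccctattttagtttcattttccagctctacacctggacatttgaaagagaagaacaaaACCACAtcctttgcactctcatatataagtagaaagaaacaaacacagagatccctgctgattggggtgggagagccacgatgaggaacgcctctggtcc
Gzmb (chr14:56262285-56262584, minus strand): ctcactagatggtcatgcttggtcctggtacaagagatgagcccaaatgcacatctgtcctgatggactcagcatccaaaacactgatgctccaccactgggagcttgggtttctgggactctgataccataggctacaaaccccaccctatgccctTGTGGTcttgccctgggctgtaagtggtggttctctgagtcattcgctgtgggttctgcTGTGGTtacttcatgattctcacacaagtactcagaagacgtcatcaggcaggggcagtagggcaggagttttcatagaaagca
The Runx core occurs 2 times in the Ncr1 window, 1 time in that of Gzma and 2 times in that of Gzmb. Counting both strands, it is in 9 of the 16 leading NK genes that have an entry (56.25%) and in 4 of 13 leading T genes, against 16.8% of 32851 promoters of that length. The T-box half-site TCACAC is in 5 of 16 NK and 3 of 13 T entries, against 14.5% of all. The ETS core GGAAGT is in 4 of 16 and 3 of 13, against 23.8%. The motifs were picked with these genes in view, so the counts only describe the lists. The NK list also holds Klra and Klrc genes that are near copies of each other, so its entries need not be separate cases. A match is a run of letters, not a binding site.

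T barcodes carried the signalling genes behind the receptor. Each of the 14 genes on that list was found in at least 10% of the 33, and 11 of the 14 were found in at least 10% of the NK barcodes. Bcl11b, a transcription factor of T cell identity, was found in 33, Themis, which acts in thymic selection, in 30, and the adaptor Lat in 28. By fold over the barcodes that were not lymphoid, the leading genes included Ifng, Cd8b1, Cd3e, Trbc2, Gzmb, Cd8a, Dapl1, Trbc1, Klrg1, Cd3g, Nsg2, Bcl11b, Fasl, Nkg7, Themis, Krt83, Cxcr6, Podnl1 and Lat. Trbc1 and Trbc2, the alternative constant segments of the beta chain, were both found in 18 T barcodes, with Trbc2 alone in 14 and Trbc1 alone in 1.

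Cd8 and Cd4 transcripts divided most of the T barcodes. Cd8a or Cd8b1 without Cd4 was found in 15 T barcodes, Cd4 alone in 12, both kinds in 1 and neither in 5. By library, CD8 barcodes were 4 of 8 in carboplatin with AngII/PE, 2 of 7 in PBS with AngII/PE, 6 of 9 in carboplatin with saline and 3 of 9 in PBS with saline, and CD4 barcodes were 4, 4, 1 and 3 in that order. The Cd4 calls are shallow: 7 of the 12 rest on 1 UMI, with a median of 1 and a highest value of 6, whereas the 15 CD8 barcodes had a median of 15 Cd8a and Cd8b1 UMIs. Unthinned, Cd4 was found in 39.4% of T and 3.45% of NK barcodes, against 1.94% of macrophage-marker and 0.117% of endothelial-marker barcodes, and after thinning in 3.03% of T and 0% of NK, against 0.211% and 0%. Other T lineages were rare: Foxp3, the factor of regulatory T cells, was found in 1 barcode, and Trdc, of the gamma delta receptor, in 2, of which 1 is a CD4 barcode with 21 Trdc UMIs.

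Cytotoxic genes lay with Cd8 in the T barcodes. Nkg7 was found in 13 of 15 CD8 and 2 of 12 CD4 barcodes, and Gzmb in 5 and 0. Cxcr6, a chemokine receptor of tissue-resident T cells, was found in 8 of 15 and 5 of 12. Dividing cells were few: at least 10 of 20 cell cycle genes were found in 2 T barcodes of carboplatin with AngII/PE, 1 of PBS with AngII/PE, 1 of carboplatin with saline and 0 of PBS with saline, and in no NK barcode. The highest T barcode of each of these libraries had 310, 81, 436 and 24 cell cycle UMIs.

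The 8 barcodes outside both classes were a mixture. Among the 5 with a Cd3 gene and NK receptors, 2 of PBS with saline had 76 and 143 Gzma UMIs and 114 and 135 Ccl5 UMIs beside 3 and 1 UMIs of Cd3d, while 1 of carboplatin with AngII/PE had 4, 5 and 6 UMIs of Cd3d, Cd3e and Cd3g beside 7 of Il7r, 6 of Gata3 and 33 of Ccl5. A single barcode of PBS with AngII/PE had ILC2 genes, with 14 UMIs of Il7r, 8 of Gata3, 22 of Rora, 8 of Arg1 and 6 of Il1rl1, the receptor for interleukin 33, and none of Cd3d, Cd3e, Cd3g or Trac. The ILC2 genes Il17rb, Il13 and Il5 had no UMI in any lymphoid barcode. Other barcodes hold parts of such patterns: an unclassed barcode of carboplatin with saline, of 2643 UMIs, had 1 UMI of Il7r, 2 of Gata3, 3 of Rora and 1 of Il1rl1, and an NK barcode of PBS with AngII/PE had 20 UMIs of Ncr1, 7 of Il7r and 13 of Rora and none of Gzma, Prf1 or Eomes. Innate lymphoid cells other than NK cells were not classed apart. In carboplatin with saline, 1 barcode of 24548 UMIs had 24 UMIs of Pecam1, 26 of Kdr and 20 of Cdh5, endothelial genes, beside 17 of Bcl11b and 17 of Ctla4.

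In carboplatin with saline, 1 NK barcode went against its class and 2 others lacked some NK genes. The first met the rule through 1 UMI each of Klre1, Gzma and Il7r among 21680 UMIs. It had 18 UMIs of Cd209a, 17 of Clec10a and 9 of Cd209b, genes of dendritic cells and macrophages, and none of Ncr1 or Ccl5. The 2 others, of 12252 and 11226 UMIs, had none of Gzma, Eomes, Itgam, Klra4 or Klra8. They had 8 and 2 UMIs of Ncr1, 73 and 31 of Xcl1, and 7 each of Cxcr6. These barcodes are counted as the rule takes them.

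NK barcodes stood above T barcodes in Klra receptors, and below them in genes of T cell signalling. Among the 20 genes with the highest NK to T ratio outside the rule, 6 were Klra genes. Itga2, the integrin CD49b, stood at 619 CPM over NK barcodes and 12.6 over T barcodes, a ratio of 49.2 (20.7 to 153). Cd244a, the receptor 2B4, had 94 UMIs in 28 of 29 NK barcodes and 0 in T barcodes, and is at least 44.6-fold higher, taking 3 counts as the limit of a count of 0 over the class. Adamts14, a procollagen protease, was found in 24 of 29 NK and 4 of 33 T barcodes. On the T side, Themis had 0 UMIs in NK and 366 in T barcodes, Camk4, a calcium-dependent kinase, 0 and 131, and Ctla4, an inhibitory receptor, 0 and 112. NK barcodes were not free of receptor transcripts, since 20 of 29 had a UMI of Trbc1 or Trbc2 and 4 had 1 UMI of Trac.

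**Figure D2:**
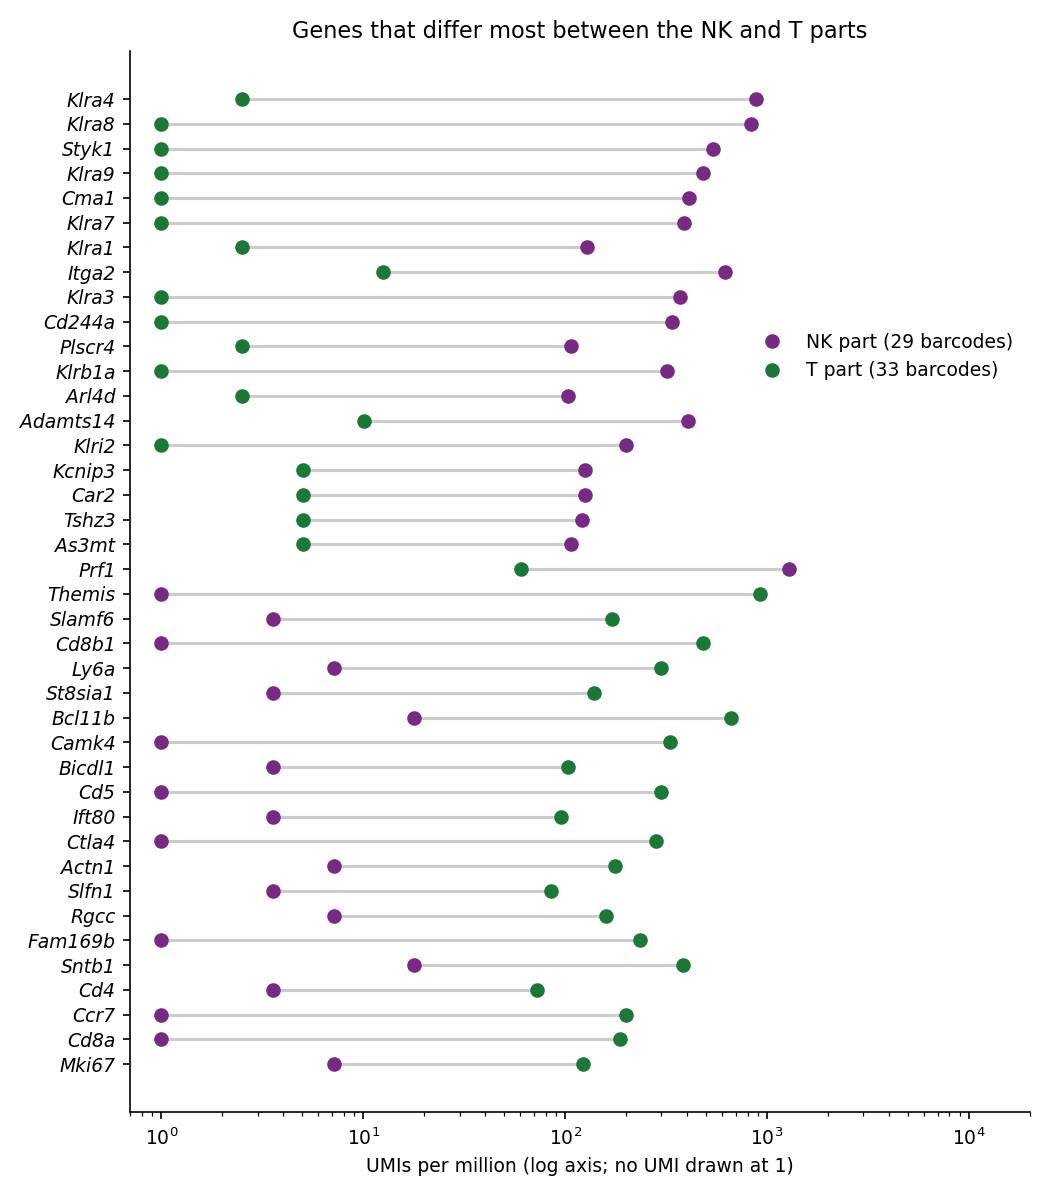
Level in CPM (log axis) over the 29 NK barcodes (purple) and the 33 T barcodes (green) of the 20 genes at the top and the 20 at the bottom of the NK to T ratio, rule genes left out. The 6 Klra genes lie at 129 to 877 CPM in NK barcodes and at 0 to 2.52 in T barcodes, while Themis and Camk4 have no UMI in NK barcodes.

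The genes of the sorted proteins differed between the classes. Itgam, which encodes CD11b, was found after thinning in 8 of 29 NK barcodes (27.6%, 12.7 to 47.2) and 1 of 33 T barcodes (3.03%, 0.0767 to 15.8), against 17.9% of barcodes with macrophage markers and 1.13% with endothelial markers. Unthinned, these shares were 79.3, 15.2, 79.5 and 8.32%. The share with Itgam in NK barcodes was near that of macrophage-marker barcodes, and the share in T barcodes not separable from that of endothelial-marker barcodes. Fcgr1, which encodes CD64, was found after thinning in 0 of 29 NK and 0 of 33 T barcodes, which allows shares of up to 10.3% and 9.09% of barcodes with an Fcgr1 UMI among 1000 UMIs, against 18.2% of macrophage-marker and 0.830% of endothelial-marker barcodes. Unthinned, it was found in 1 NK barcode (3.45%) and 5 T barcodes (15.2%), against 82.3% and 6.98%.

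Carboplatin with saline held the most lymphoid barcodes, and most of them were NK. Lymphoid barcodes numbered 10 in carboplatin with AngII/PE (0.176%, 0.0846 to 0.324), 10 in PBS with AngII/PE (0.260%, 0.125 to 0.477), 34 in carboplatin with saline (0.976%, 0.677 to 1.36) and 16 in PBS with saline (0.371%, 0.212 to 0.602). NK barcodes numbered 1, 2, 22 and 4 in that order, and T barcodes 8, 7, 9 and 9. The interval of the NK share in carboplatin with saline (0.396 to 0.954%) lay above those of the other libraries, the highest of which was that of PBS with saline (0.0253 to 0.237%). The intervals of the T shares overlapped among all 4 libraries. Fewer NK cells entering the gate, and NK cells lost in sorting or loading, cannot be told apart in these shares.

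Under saline, the NK share after carboplatin was 6.80 times (2.35 to 19.7) that after PBS, and the T share 1.24 times (0.492 to 3.11). Under AngII/PE, the NK ratio of carboplatin to PBS was 0.339 (0.0308 to 3.74), from 1 and 2 barcodes, and the T ratio 0.776 (0.282 to 2.14). AngII/PE against saline gave an NK ratio of 0.0279 (0.00377 to 0.207) after carboplatin and 0.560 (0.103 to 3.06) after PBS. The T ratios were 0.546 (0.211 to 1.41) and 0.871 (0.325 to 2.34). Only the 2 NK ratios that contain carboplatin with saline have an interval that leaves out 1, and they share that library. Counting the 5 barcodes with both a Cd3 gene and NK receptors as NK, a choice made after seeing the data, gave 2, 2, 23 and 7 barcodes in the order of libraries above, and ratios of 4.06 (1.75 to 9.46) for carboplatin over PBS under saline and 0.0534 (0.0126 to 0.227) for AngII/PE over saline after carboplatin.

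Other cell types that came through the gate differed between the libraries too. Barcodes with B cell markers were 0.353% of kept barcodes in carboplatin with AngII/PE, 1.33% in PBS with AngII/PE, 4.82% in carboplatin with saline and 2.60% in PBS with saline. Those with endothelial markers were 5.96, 7.92, 14.8 and 12.7% in the same order, and those with macrophage markers 81.1, 70.8, 52.9 and 61.9%. Carboplatin with saline thus had the highest shares of NK, B cell and endothelial barcodes and the lowest of macrophage barcodes, and the part of the sort in the NK share was not tested.

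**Figure D3:**
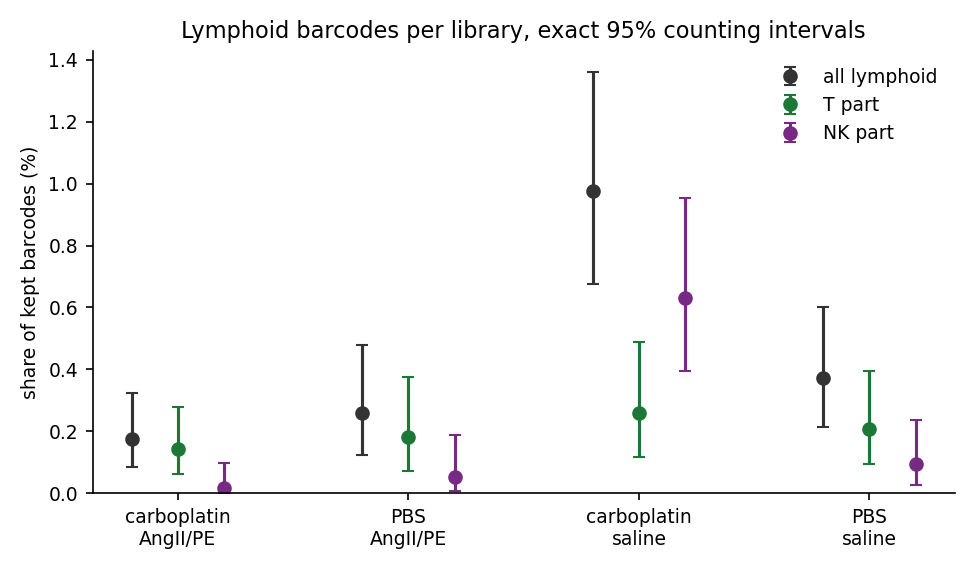
Share of kept barcodes (y axis, %) that were lymphoid, T or NK in each library, with exact 95% counting intervals. The NK share of carboplatin with saline is 0.631%, against 0.0176 to 0.0928% in the other libraries, while the T shares lie between 0.141 and 0.258%.

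Most of the NK barcodes of carboplatin with saline were male-called. Barcodes with Xist and no Y-linked gene were called female, and those with Ddx3y, Eif2s3y, Kdm5d or Uty and no Xist were called male. In carboplatin with saline 14 of 1380 male-called barcodes were NK (1.01%, 0.556 to 1.70), against 1 of 1592 in PBS with saline (0.0628%, 0.00159 to 0.349). Among female-called barcodes the numbers were 3 of 1319 (0.227%, 0.0469 to 0.663) and 3 of 1505 (0.199%, 0.0411 to 0.581), with intervals that overlap, and 5 NK barcodes of carboplatin with saline had no call. All lymphoid barcodes showed the same split, with 21 of 1380 male-called in carboplatin with saline and 2 of 1592 in PBS with saline, and 7 of 1319 and 10 of 1505 female-called. The mice of a pool cannot be told apart beyond this call, and how many mice the 22 NK barcodes came from was not tested.

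**Figure D4:**
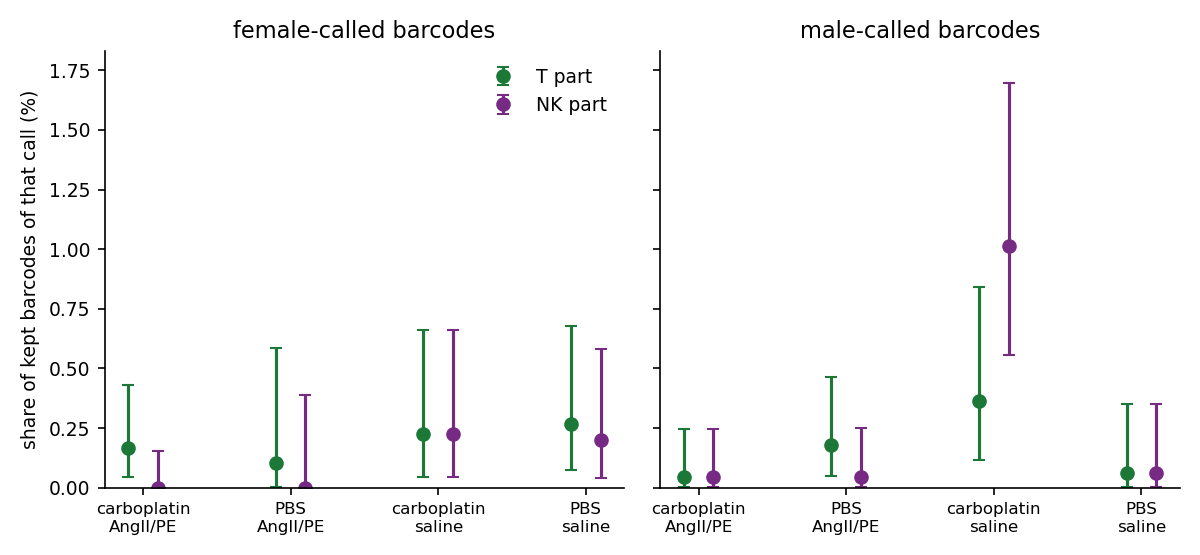
Share of kept barcodes of each sex call (y axis, %) that were T (green) or NK (purple) in each library, for female-called and male-called barcodes, with exact 95% counting intervals. The male-called NK share of carboplatin with saline is 1.01%, and the other NK shares are at most 0.227%.

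Lymphoid barcodes held most of the Ccl5 in the saline libraries. They held 413 of 3367 Ccl5 UMIs in carboplatin with AngII/PE (12.3%, 11.2 to 13.4), 115 of 2653 in PBS with AngII/PE (4.33%, 3.59 to 5.18), 3971 of 4607 in carboplatin with saline (86.2%, 85.2 to 87.2) and 807 of 1216 in PBS with saline (66.4%, 63.6 to 69.0). The 22 NK barcodes of carboplatin with saline alone held 3186 Ccl5 UMIs, 69.2% of that library's total. Barcodes with macrophage markers held 79.0, 82.3, 11.8 and 30.4% in the same order of libraries, so that the main holder of Ccl5 differed between the AngII/PE and the saline libraries. Of the 20 barcodes with the most Ccl5, 3, 2, 18 and 6 were lymphoid.

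Ccl5 was found in nearly every NK barcode. After thinning it was found in 27 of 29 NK barcodes (93.1%, 77.2 to 99.2) and 8 of 33 T barcodes (24.2%, 11.1 to 42.3), against 7 of 1687 barcodes with endothelial markers (0.415%) and 196 of 11832 with macrophage markers (1.66%). Unthinned, the shares were 96.6, 36.4, 1.99 and 7.24%. Thinning left out 19 endothelial-marker and 2 macrophage-marker barcodes and no lymphoid one. The 22 NK barcodes of carboplatin with saline had 0 to 431 Ccl5 UMIs with a median of 106, and the 4 of PBS with saline 1 to 77 with a median of 60.5. The 2 of PBS with AngII/PE had 5 and 50, and the 1 of carboplatin with AngII/PE had 117.

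Among T barcodes Ccl5 lay with Cd8. It was found in 8 of 15 CD8 barcodes with 1315 UMIs (6830 CPM) and in 2 of 12 CD4 barcodes with 6 UMIs (36.9 CPM). The T barcodes of carboplatin with AngII/PE had a median of 3 Ccl5 UMIs and a highest value of 133, and those of the other libraries a median of 0 and highest values of 57 in PBS with AngII/PE, 408 in carboplatin with saline and 359 in PBS with saline. In PBS with saline 1 CD8 barcode held all 359 Ccl5 UMIs of the T barcodes.

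The level of Ccl5 differed between libraries in one way in lymphoid barcodes and in another in macrophage-marker barcodes. Over lymphoid barcodes it was 3624 CPM in carboplatin with AngII/PE, 814 in PBS with AngII/PE, 10689.6 in carboplatin with saline and 5916 in PBS with saline. The ratio of carboplatin to PBS was 4.45 (3.61 to 5.52) under AngII/PE and 1.81 (1.67 to 1.95) under saline, and that of AngII/PE to saline was 0.339 (0.306 to 0.375) after carboplatin and 0.138 (0.112 to 0.168) after PBS. The AngII/PE and saline sums set 1 NK barcode against 22 after carboplatin and 2 against 4 after PBS. In PBS with saline, 3 more barcodes with both a Cd3 gene and NK receptors held 249 of the 807 lymphoid Ccl5 UMIs. PBS with AngII/PE had 0 such barcodes. Within NK barcodes the ratio of AngII/PE to saline was 1.65 (1.36 to 1.98) after carboplatin, on the other side of 1 and from 1 barcode under AngII/PE, and 0.432 (0.315 to 0.585) after PBS. Within T barcodes it was 0.393 (0.340 to 0.453) after carboplatin and 0.128 (0.0956 to 0.168) after PBS. The T ratio after PBS rests on 1 barcode with 57 of 60 UMIs under AngII/PE and 1 with all 359 under saline. Ccl5 was found there in 2 of 7 T barcodes under AngII/PE and 1 of 9 under saline. Over macrophage-marker barcodes Ccl5 was at 42.0, 56.7, 19.1 and 10.1 CPM in the same order of libraries. There the ratio of carboplatin to PBS was 0.741 (0.700 to 0.784) under AngII/PE and 1.88 (1.65 to 2.16) under saline, and that of AngII/PE to saline 2.20 (2.01 to 2.42) after carboplatin and 5.60 (5.01 to 6.27) after PBS.

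Library-wide Ccl5 ratios differed with and without the lymphoid barcodes. Over all kept barcodes, Ccl5 under saline was at 116 CPM after carboplatin and 25.3 after PBS, a ratio of 4.59 (4.31 to 4.90), and without the lymphoid barcodes at 16.2 and 8.54, a ratio of 1.90 (1.67 to 2.15). AngII/PE to saline after carboplatin gave a ratio of 0.401 (0.383 to 0.419) over all kept barcodes and of 2.53 (2.32 to 2.76) without the lymphoid ones. Leaving out 10 barcodes of carboplatin with AngII/PE and 34 of carboplatin with saline turned its direction. After PBS the same ratio was 2.18 (2.04 to 2.34) with them and 6.21 (5.60 to 6.91) without. Among barcodes that were not lymphoid, those with at least 50 Ccl5 UMIs held much of it. Under AngII/PE, 12 such barcodes held 941 of 2954 UMIs after carboplatin and 9 held 951 of 2538 after PBS. Under saline, 2 held 149 of 636 after carboplatin and 1 held 83 of 409 after PBS.

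**Figure D5:**
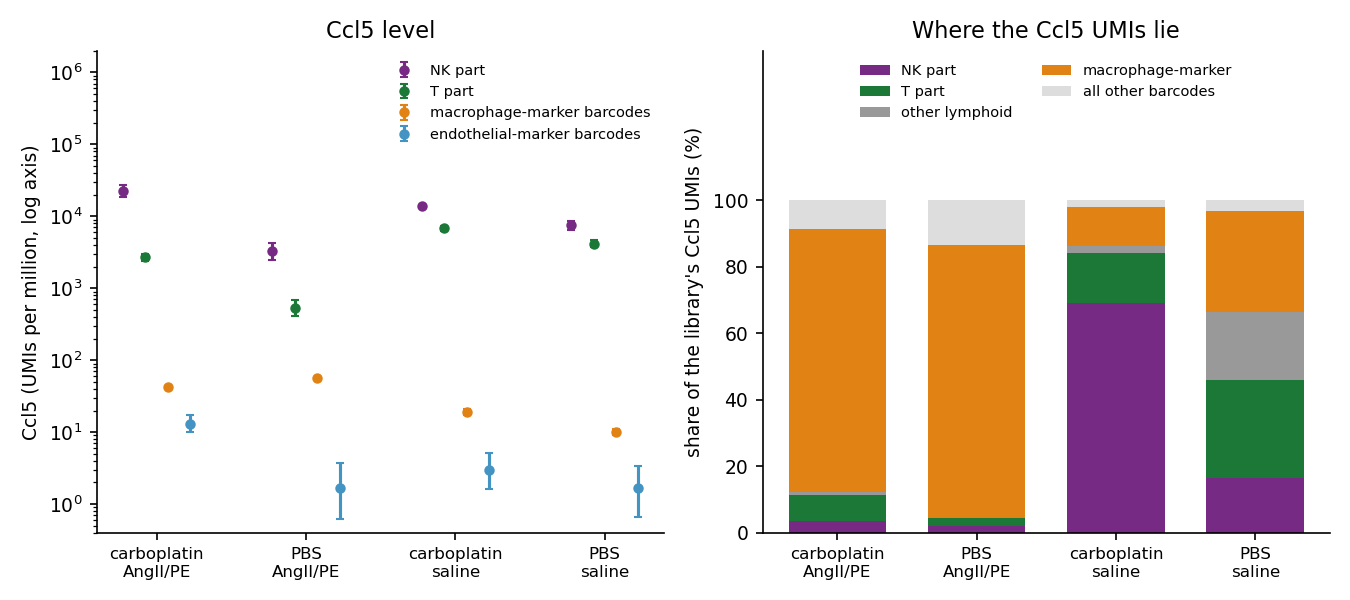
Left panel: Ccl5 level (CPM, log axis, exact 95% counting intervals) by class and library; right panel: share of each library's Ccl5 UMIs (%) by class. Lymphoid barcodes hold 12.3 and 4.33% of the Ccl5 UMIs in the AngII/PE libraries of carboplatin and PBS and 86.2 and 66.4% in their saline libraries.

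Single barcodes weighed on these levels. Under saline, 1 NK barcode held 10.9% of the lymphoid Ccl5 UMIs after carboplatin and 1 CD8 barcode 44.5% after PBS, and without both the levels were 9815 and 3817 CPM, a ratio of 2.57 (2.33 to 2.84). Under AngII/PE, 1 CD8 barcode held 32.2% after carboplatin and 1 T barcode 49.6% after PBS. Without both of these the ratio of carboplatin to PBS was 5.78 (4.34 to 7.80). Within NK barcodes under saline, Ccl5 was at 13785 CPM after carboplatin and 7544 after PBS (1.83, 1.58 to 2.12), and within T barcodes at 6836 and 4189 (1.63, 1.43 to 1.86). In female-called lymphoid barcodes the ratio under saline was 0.623 (0.554 to 0.701), on the other side of 1, and the 2 male-called lymphoid barcodes of PBS with saline were too few for a value.

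Expression over the lymphoid barcodes was compared gene by gene on summed UMIs. Genes with at least 30 UMIs over both libraries of a pair were compared, and a gene was counted as higher or lower at a CPM ratio of 2-fold or more. NK and T barcodes differ in number between libraries, so in these sums more NK barcodes and more RNA of a gene per barcode cannot be told apart. Values within the 7 to 9 T barcodes per library are given beside them. Libraries other than carboplatin with saline had too few NK barcodes for such a comparison within NK. The T barcodes are themselves mixed. Under AngII/PE, CD8 barcodes were 4 of 8 after carboplatin and 2 of 7 after PBS, and under saline 6 of 9 and 3 of 9. Within T, more CD8 barcodes and more RNA of a gene per barcode cannot be told apart either.

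Under saline, the lymphoid sum after carboplatin had more effector genes. Of 3473 genes, 9.16% were higher and 4.35% lower than after PBS, with a median log2 ratio of 0.06. Of 9 cytotoxic granule genes 4 were higher (median log2 ratio 0.87), of 13 NK receptor genes 4 (0.41), of 4 chemokines 2 (1.14) and of 10 activation and checkpoint genes 3 (0.47), and none of these genes was lower. The granule list includes Gzma, a rule gene, whose level is set in part by the choice of barcodes. Of 6 targets of p53, none was higher or lower (0.45), and of 13 interferon-stimulated genes 2 were higher and 1 lower (0.00). These sums held 22 NK barcodes after carboplatin and 4 after PBS, and 1 and 3 with both a Cd3 gene and NK receptors.

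The higher effector genes were found in many barcodes. Gzmb stood at 643 CPM (239 UMIs, 20 of 34 barcodes) after carboplatin and 205 (28 UMIs, 7 of 16) after PBS, a ratio of 3.13 (2.11 to 4.82). Ifng was at 232 and 73.3 CPM (3.16, 1.64 to 6.82), Tbx21, the T-box factor of type 1 lymphocytes, at 579 and 205 (2.82, 1.90 to 4.34), and the chemokine Ccl3 at 328 and 125 (2.64, 1.58 to 4.67). Prf1 was at 861 and 389 CPM (2.22, 1.65 to 3.02). Not all NK genes lay the same way: Klra4 was at 579 and 594 CPM (0.975, 0.752 to 1.27) and Klra8 at 466 and 674 (0.691, 0.533 to 0.899).

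The 10 highest ratios under saline were those of Klra9, Ly6a, Nebl, Odc1, St5, Tnfrsf9, Vegfc, Stmn1, Ube2g2 and Syne3. Klra9 had 119 UMIs in 16 of 34 barcodes after carboplatin and 1 UMI after PBS, a ratio of 43.7 (7.69 to 1740.3). Tnfrsf9, the costimulatory receptor 4-1BB, had 30 UMIs in 12 barcodes, 26 of them in NK, and 1 after PBS (11.02, 1.83 to 449). Odc1, the first enzyme of polyamine synthesis, had 40 UMIs in 16 barcodes and 1 after PBS (14.7, 2.49 to 594). Single barcodes carried others: 41 of 69 Ly6a UMIs and 18 of 43 Nebl UMIs lay in the barcode with endothelial genes, and 67 of 75 Stmn1 UMIs in 1 T barcode. The 10 lowest were Pcca, St7, Jmy, Adk, Madd, Ccnt1, Usp12, B3gat3, Rad50 and Emb, at ratios of 0.271 to 0.357. Emb, an adhesion glycoprotein, had 69 UMIs after carboplatin and 71 after PBS, or 186 and 520.5 CPM.

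Within T barcodes under saline, some signalling genes were higher after carboplatin. Of 1151 genes 11.4% were higher and 6.26% lower, and of 12 T cell signalling genes 4 were higher and none lower (median log2 ratio 0.65). Bcl11b had 96 UMIs in 9 of 9 barcodes after carboplatin and 40 in 9 of 9 after PBS, a ratio of 2.02 (1.38 to 3.00). Skap1, an adaptor of integrin activation, had 235 UMIs and 90 (2.19, 1.71 to 2.83), Themis 134 and 55 (2.05, 1.49 to 2.86) and Cd5, a brake on receptor signalling, 31 and 10 (2.61, 1.24 to 5.96). The highest barcode after carboplatin held 19 of the Bcl11b UMIs, 71 of Skap1, 39 of Themis and 17 of Cd5. Tox, a factor of exhausted T cells, had 35 and 71 (0.414, 0.268 to 0.630), with 29 of the 71 in 1 barcode. All 6 cell cycle genes compared were higher, but 1 barcode held all 34 Mki67 UMIs and all 67 Stmn1 UMIs after carboplatin.

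Macrophage markers differed with these T cell values. C1qa, a complement gene of macrophages, had 5 UMIs in the T barcodes of carboplatin with saline and 65 in those of PBS with saline, of which 1 barcode held 58, and C1qb had 7 and 62, of which the highest barcode held 53. Their part in the other differences was not tested.

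Under AngII/PE, cell cycle and residency genes were higher after carboplatin. Over the 10 lymphoid barcodes of each library, 6.26% of 1517 genes were higher and 9.89% lower than after PBS. All 7 cell cycle genes compared were higher (median log2 ratio 1.46, against 0.01 over all genes), as were 4 of 5 genes of tissue residency (1.35), 2 of 5 cytotoxic granule genes (0.86) and 3 of 12 MHC class I genes (0.62). Within T barcodes, where 7.56% of 1191 genes were higher and 12.7% lower, 6 of 7 cell cycle genes (1.56) and 3 of 4 residency genes (1.41) were higher.

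Within the T barcodes under AngII/PE, 1 barcode after carboplatin held 310 cell cycle UMIs. Without it, 4 of the 7 genes were higher (median log2 ratio 1.07), and without the highest T barcode of each library 5 (1.53). Those 4 include Pclaf, with 5 UMIs against 0, and Pcna, whose interval held 1 (2.10, 0.956 to 4.77). After carboplatin 2 T barcodes had at least 10 cell cycle genes, so a dividing barcode remained in both sums. H2afz, a histone variant, was at a ratio of 3.40 (2.30 to 5.14) with that barcode and 2.20 (1.41 to 3.46) without it, and Tubb5, a tubulin, at 2.79 (1.83 to 4.35) and 1.49 (0.890 to 2.49). Stmn1, a microtubule regulator of dividing cells, had 62 UMIs in 4 of 8 barcodes after carboplatin and 5 in 4 of 7 after PBS, a ratio of 14.2 (5.76 to 45.2), with 34 UMIs in the highest barcode. Pcna, the clamp of DNA polymerase, had 31 UMIs in 6 and 12 in 3 (2.96, 1.48 to 6.32). Cxcr6 had 32 UMIs in 6 barcodes and 14 in 3 (2.62, 1.36 to 5.31), and Rgs1, a regulator of chemokine receptor signalling, 34 in 7 and 12 in 2 (3.24, 1.64 to 6.88). The residency gene Cd69 had 26 UMIs and 11 (2.70, 1.29 to 6.07). Single barcodes weighed here too. After carboplatin, 1 barcode held 14 of the 26 Cd69 UMIs, and 15 of the 32 Cxcr6 UMIs lay in a barcode with 8 Mki67 and 11 Top2a UMIs. After PBS, 1 barcode held 11 of the 12 Rgs1 UMIs. Nkg7 had 74 UMIs and 29 (2.92, 1.88 to 4.65), in 4 barcodes of each library.

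Naive cell genes lay the other way. Of 4 genes of naive and central memory cells compared in the T barcodes under AngII/PE, 3 were lower after carboplatin, Ccr7, Lef1 and Klf2, and none higher (median log2 ratio -1.05). Lef1, a transcription factor of naive T cells, had 21 UMIs in 3 of 8 barcodes after carboplatin and 87 in 5 of 7 after PBS (0.276, 0.163 to 0.449). Klf2, which keeps naive cells in circulation, had 42 and 99 (0.485, 0.330 to 0.703). Ctla4 had 4 UMIs and 57 (0.0803, 0.0212 to 0.217), and 41 of the 57 lay in 1 barcode. The 4 macrophage genes compared were all lower in the T barcodes after carboplatin, and 1 barcode held 78 of the 88 C1qa UMIs of PBS with AngII/PE, a difference whose part in the other values was not tested.

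Over all lymphoid barcodes under AngII/PE, the 10 highest ratios of carboplatin to PBS were those of Hip1, Ube2s, Ccl5, Ly6c2, Cd69, S100a4, Higd1a, Sms, Dnajc3 and Rgs1. S100a4, a calcium-binding protein of effector and memory cells, had 104 UMIs in 9 of 10 barcodes after carboplatin and 34 in 8 of 10 after PBS (3.79, 2.55 to 5.76). Cd69, an early activation marker that also holds cells in tissue, had 40 and 13 (3.81, 1.998 to 7.77). The 10 lowest were Cdk19, Ctla4, Gtdc1, Nrip1, Cradd, Mtmr3, Asxl1, Foxo1, Kcnq5 and Arglu1, at ratios of 0.103 to 0.225. Foxo1, a transcription factor of naive and memory T cells, had 5 UMIs in 4 barcodes and 30 in 8 (0.207, 0.0626 to 0.538).

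AngII/PE against saline after carboplatin set 1 NK barcode against 22. Of 3289 genes, 5.23% were higher and 19.5% lower under AngII/PE (median log2 ratio -0.20). Of 12 NK receptor genes 9 were lower (-2.45), of 14 genes of NK identity 11 with 1 higher (-2.10), of 8 cytotoxic granule genes 5 (-1.30) and of 4 chemokines 4 (-2.62). The 5 lower granule genes include Gzma, a rule gene. Klra4 had 0 UMIs under AngII/PE and 215 in 15 of 34 barcodes under saline, at least 21.99-fold lower with 3 counts as the limit of a count of 0 in the library. Itgam had 2 and 92 UMIs (0.0709, 0.00845 to 0.263). The highest ratios were those of Ass1, Cish, Thy1, Rexo2, Adh5, Lsm8, Pgk1, Cd6, Lat and Pcna, of which Thy1, Cd6 and Lat are T cell genes. Cish, an inhibitor of cytokine signalling, had 24 UMIs in 5 of 10 barcodes and 12 in 4 of 34 (6.52, 3.14 to 14.3), all in T barcodes. Beside Klra4, the lowest were Klra3, Camkmt, Klra8, Sulf2, Rbpms, Setbp1, Nr4a3, Dnajb4 and D1Ertd622e.

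Within T barcodes after carboplatin, some of the lower genes were of the same kinds and others were not. Of 2 chemokines compared 2 were lower, Ccl5 and Ccl4 (median log2 ratio -2.46), and of 3 genes of NK identity 2, Tbx21 and Txk (-2.07). In saline, 1 barcode held 36 of the 37 Ccl4 UMIs. Of 4 cytotoxic granule genes 1 was lower, the rule gene Gzma (-0.16). Under AngII/PE 7.2% of 1181 genes were higher and 15.9% lower than under saline. Of 16 immediate-early and dissociation genes 5 were lower (Fos, Fosb, Jun, Dusp1 and Nfkbia) and 1 higher (Junb), with a median log2 ratio of -0.29 against -0.09 over all genes. Cell cycle genes did not lean one way, with 2 of 9 higher and 2 lower (-0.03). Lef1 had 21 UMIs in 3 of 8 barcodes under AngII/PE and 88 in 8 of 9 under saline (0.249, 0.147 to 0.404), Themis 60 and 134 (0.466, 0.338 to 0.637), and Klf2 42 and 87 (0.503, 0.339 to 0.735). Nr4a3, an immediate target of receptor signalling, had 2 and 29 (0.0718, 0.00830 to 0.284), of which 20 lay in 1 barcode.

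AngII/PE against saline after PBS set 2 NK barcodes against 4, and 0 barcodes with both Cd3 and NK receptors against 3. Of 1783 genes, 5.22% were higher and 11.3% lower under AngII/PE (median log2 ratio -0.11). All 7 NK receptor genes compared were lower (-3.17), as were 4 of 6 cytotoxic granule genes (-1.87), 5 of 7 genes of NK identity (-1.54) and 2 of 2 chemokines (-2.58). Gzma, a rule gene, is among the 4 lower granule genes. Prf1 was at 42.5 CPM in 2 of 10 barcodes under AngII/PE and 389 in 10 of 16 under saline (0.109, 0.0384 to 0.254). In PBS with saline, 2 barcodes with both Cd3 and NK receptors held 39 of its 81 Klra4 UMIs. Lowest were Klra8, Klra4, Itga2, Klra3, Prf1, Hip1, Klra7, Ccl5, Gzmb and Setbp1.

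Highest after PBS were Ctla4, Rora, Timm23, Cd5, Bzw2, Phc3, Mrpl52, Fkbp5, Znrf1 and Icos. Rora, a factor of ILC2 and of tissue T cells, had 74 UMIs in 6 of 10 barcodes under AngII/PE and 13 in 3 of 16 under saline (5.50, 3.03 to 10.8), and 22 of the 74 lay in the barcode with ILC2 genes. Within T barcodes 6.71% of 1162 genes were higher and 7.49% lower. Cd28, the costimulatory receptor, had 77 UMIs in 6 of 7 and 24 in 7 of 9 (2.45, 1.53 to 4.06), and Cd5 43 in 6 and 10 in 5 (3.29, 1.63 to 7.34), with 33 and 23 UMIs in the highest barcode under AngII/PE. Tox had 14 and 71 UMIs (0.151, 0.0785 to 0.270). None of 6 genes of naive and central memory cells was higher or lower (-0.12).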

How the data were processed

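Cells of mouse heart were measured by droplet single-cell RNA sequencing in 4 libraries, 1 per group. The deposited matrices hold whole-number UMI counts per gene and barcode, not normalized, made with Cell Ranger 7.1.0 per the file headers. The labels' protocols name version 3 instead, and mm10 as the build. Kept barcodes had under 10% mitochondrial UMIs, under 30000 UMIs and more than 500 but fewer than 7000 genes. The submitters removed lymphocytes in their own analysis, per the series' design text. Of 27968 deposited barcodes, 17312 were kept, with 39630235 to 72271962 UMIs per library.

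Counts were summed per library and class and given per 1000000 UMIs of those cells (CPM). Intervals are 95% and cover counting error only: exact binomial for shares, exact Poisson for CPM, exact conditional binomial for CPM ratios and log-normal for share ratios. A count of 0 was bounded by 3 counts. Thinning drew 1000 UMIs per barcode. No p-value was computed. The interval and ratio steps were tested on simulated sums with counting error only, so that test does not cover differences between barcodes. Barcodes with macrophage markers had UMIs of at least 8 of 10 markers, and those with endothelial markers at least 4 of 8.

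Named genes were, per comparison, the 10 highest and 10 lowest CPM ratios among genes with at least 30 UMIs, UMIs in at least 5 lymphoid barcodes of the higher library, an interval that leaves out 1 and a CPM no lower than in other kept barcodes. Rule, sex-linked, mitochondrial, ribosomal protein and unnamed model genes were left out. Genes of the fixed lists and the 20 leading genes per class were named too. Other genes named singly, such as those of single barcodes, were chosen after their values were seen. The members and lists were chosen with earlier results of these data known. Python 3.11.15, numpy 2.4.6, scipy 1.17.1, pandas 2.3.3, matplotlib 3.10.9 and, for TMM scaling as an alternative, edgeR 4.0.16 in R 4.3.3 were used. Results for some genes are not reported here.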

Additional observations from a re-analysis of the deposited data

Results flagged for a closer look

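Several ratios lay on opposite sides of 1 under AngII/PE and under saline. For carboplatin over PBS, the lymphoid share ratio was 0.679 under AngII/PE and 2.63 under saline, the T share ratio 0.776 and 1.24, and the NK share ratio 0.339 and 6.80. Ccl5 in barcodes with macrophage markers gave 0.741 under AngII/PE and 1.88 under saline. None of these differences was tested, since each group is 1 library.

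Other ratios lay on opposite sides of 1 in female-called and male-called barcodes of the same libraries. For carboplatin over PBS under AngII/PE, female-called barcodes gave a T share ratio of 1.60 and male-called ones 0.244. Under saline, female-called barcodes gave a lymphoid share ratio of 0.799 and male-called ones 12.1, with T share ratios of 0.856 and 5.77. For AngII/PE over saline after PBS, the lymphoid share ratios were 0.317 and 1.80 and the T share ratios 0.396 and 2.88, each with the female-called value ahead of the male-called one. These differences were not tested either, and the T ratios rest on 1 to 5 barcodes per library and sex call.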

How the results depend on the processing

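No paired analysis was possible because each group is 1 library, and for the same reason no replicate was left out. The settings tried were at least 4 rule genes, the rule without Il7r and Gzma, a mitochondrial share under 5%, at least 1000 genes, leaving out the 2 barcodes rich in macrophage RNA, female-called or male-called cells alone, no cell filter, thinned depth, TMM scaling and other UMI minimums. Summing T barcodes alone, and counting barcodes of both kinds as NK, were chosen after seeing the data. Ratios with 0 barcodes on a side, and gene sums with fewer than 5 lymphoid barcodes in a library, gave no value.

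The NK share ratio of carboplatin to PBS under saline moved beyond its interval in 1 setting, to 1.14 in female-called cells. In male-called cells the T share ratio was 0.244 for carboplatin over PBS under AngII/PE, 5.77 under saline, 0.122 for AngII/PE over saline after carboplatin and 2.88 after PBS. The lymphoid share ratio of carboplatin to PBS under saline was 12.1 in male-called cells and turned round to 0.799 in female-called cells. For AngII/PE over saline it was 0.0871 in male-called cells after carboplatin, and after PBS 1.80 in male-called cells and 0.317 in female-called ones. The cause was not tested.

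Ccl5 in lymphoid barcodes, carboplatin over PBS under saline, was 1.63 in T barcodes alone, 1.97 with 4 rule genes, 2.04 without Il7r and Gzma, 1.50 without macrophage-rich barcodes and 0.623 in female-called cells, where the direction turned. Under AngII/PE it was 2.77 at a mitochondrial share under 5% and 3.59 without macrophage-rich barcodes. For AngII/PE over saline after carboplatin it was 0.393 in T barcodes alone, 0.297 with 4 rule genes, 0.297 without Il7r and Gzma and 0.279 under 5%, and after PBS 0.186 under 5%. The cause was not tested.

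Genes at least 2-fold higher or lower numbered 245 for carboplatin over PBS under AngII/PE, 469 under saline, 813 for AngII/PE over saline after carboplatin and 294 after PBS. A minimum of 60 UMIs, which compares fewer genes, gave 81, 140, 339 and 85 in that order, and no minimum 2256, 2483, 2675 and 2298. T barcodes alone gave 203 under saline, 273 after carboplatin and 165 after PBS, and female-called cells 245 under saline. TMM scaling moved none of 8 values. Depth limits the smallest sums: the 10 lymphoid barcodes of carboplatin with AngII/PE held 113967 UMIs.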
